A study of Mus musculus with 10 samples.

Results

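The genes described here are 46 mouse interferon-stimulated genes and interferon-inducible GTPases, taken by symbol from a gene count table of 21849 genes. By the interferon best known to induce them, 32 were grouped as type I induced genes, 10 as interferon-gamma induced GTPases and 4 (Irf1, Cxcl9, Ido1 and Socs1) as other interferon-gamma targets. The table came from 10 tumours of BALB/c mice, 5 fed an arginine-deficient diet and 5 a normal diet, the deficient diet lacking arginine at equal total calories. Mice were 5 weeks old when assigned by body weight, ate their diet for 1 week before CT26 colon carcinoma cells were placed under the skin, and tumours were taken on day 20. CT26 is an established BALB/c colon tumour line, so the host had a working immune system, and each library is bulk RNA of tumour cells and host cells together. The labels state no other treatment or allele for either group. Library totals ran from 12013178 to 31530123 counts.

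Type I interferons signal through the receptor chains Ifnar1 and Ifnar2 to a complex that holds Stat2 and Irf9 and binds the interferon-stimulated response element (ISRE). Interferon-gamma, made mainly by T cells and NK cells, signals through Ifngr1 and Ifngr2 to genes with a gamma-activated site (GAS), Irf1 among them, and Irf1 in turn binds ISRE-like sequences. The type I induced genes include sensors of viral nucleic acid, antiviral effectors, transcription factors and protein modifiers. The guanylate-binding proteins (GBPs) and immunity-related GTPases (IRGs) include proteins that attack vacuoles that hold microbes. Many genes of either class respond to both interferons.

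Promoter stretches of 8 members hold matches to the ISRE or GAS core. RefSeq promoter windows on GRCm38.p6, from 250 bases before to 50 bases after the start, were found for 35 of the 46 members. The ISRE core was searched as TTTC and a second TTTC with 2 bases of any kind between them, or GAAA and a second GAAA likewise, which is the same site read from the other strand. The GAS core was searched as TTC and GAA with 3 bases of any kind between them, which reads the same on both strands. Each printed stretch is 30 bases, written 5′ to 3′ on the gene's strand, and capitals mark every match that lies wholly inside it. The first 3 are type I induced genes, the next 4 are GTPases, and the last holds a GAS core.
Ifit1: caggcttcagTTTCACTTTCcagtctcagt
Isg15: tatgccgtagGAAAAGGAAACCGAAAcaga
Oas1a: cccttctcggGAAATGGAAACTGAAAatct
Gbp2: actcttttagTTTCACTTTCactgtcttaa
Gbp7: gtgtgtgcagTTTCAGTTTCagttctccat
Irgm1: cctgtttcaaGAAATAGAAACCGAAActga
Irgm2: tccaggaactGAAACTGAAAgctgttcggg
Irf1: acagcctgatTTCCCCGAAatgatgaggcc
They lie at chr19:34640775-34640804 on the plus strand for Ifit1, chr4:156200877-156200906 on the minus strand for Isg15, chr5:120907526-120907555 on the minus strand for Oas1a, chr3:142620594-142620623 on the plus strand for Gbp2, and chr3:142530273-142530302 on the plus strand for Gbp7. Those of Irgm1, Irgm2 and Irf1 lie at chr11:48871431-48871460 on the minus strand, chr11:58214903-58214932 on the plus strand and chr11:53769914-53769943 on the plus strand. In Isg15, Oas1a and Irgm1 the capitals run together because matches overlap.

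Both classes carried the ISRE core, and each GTPase with a window carried it in at least 1 window. It was present in 12 of 23 type I induced genes with a window (52.2%), in 9 of 9 GTPases and in 1 of 3 other interferon-gamma targets, beside 1079 of 27025 genes of the whole promoter table (3.99%). The GAS core was present in 5 of 23 type I induced genes (21.7%) and 5 of 9 GTPases (55.6%), beside 9.55% of all genes. Of the 35 members with a window, 7 held both cores, 15 the ISRE core alone, 4 the GAS core alone and 9 neither. A match describes letters and not binding, and the difference between the classes was not tested.

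Of the 46 members, 41 had enough counts to test. Mx1 and Mx2, dynamin-like GTPases against viruses, had no row in the table analysed. Tgtp1 was listed at 0 in every library, Gbp4 had 0 to 2 counts and Igtp 0 to 3 counts per library. The annotation places 100% of the exonic bases of Tgtp1, 99.4% of those of Gbp4 and 96.9% of those of Igtp inside the body of another gene (Olfr56 on the other strand, Gbp8 and Irgm2 on the same strand), so these 3 are given as listed and not as silent genes. The part of this overlap in their counts was not tested. Cxcl10, Irf8, Gbp6, Gbp9, Gbp10, Tgtp2 and Ifi47, genes of the same pathways, were also listed at 0 in every library and have nearly all exonic bases inside other genes.

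No diet difference of a member passed the test. None of the 41 tested members passed an adjusted p of 0.05 in edgeR's quasi-likelihood test over all 12929 tested genes, of which 7 passed higher on the deficient diet (0.0541%) and 0 passed lower. At an unadjusted p of 0.05, 0 members passed, beside 6.74% of all tested genes (3.54% higher and 3.19% lower), and the diets' libraries overlapped for every tested member, while they did not overlap for 1.65% of all tested genes. The smallest adjusted p among the members was 0.843, for Oas1a. The log2 fold change, deficient minus normal diet, was above 0 for 29 of 41 members, beside 50.3% of all tested genes, and its median was 0.086 beside 0.0012 for all tested genes. The 95% interval of the fold change stayed within 1 log2 unit in either direction for 40 of 41 members, Ifi44 being the exception with an upper bound of 1.27. In bulk tumours, fewer cells of a type and less RNA per cell cannot be told apart.

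**Figure D1:**
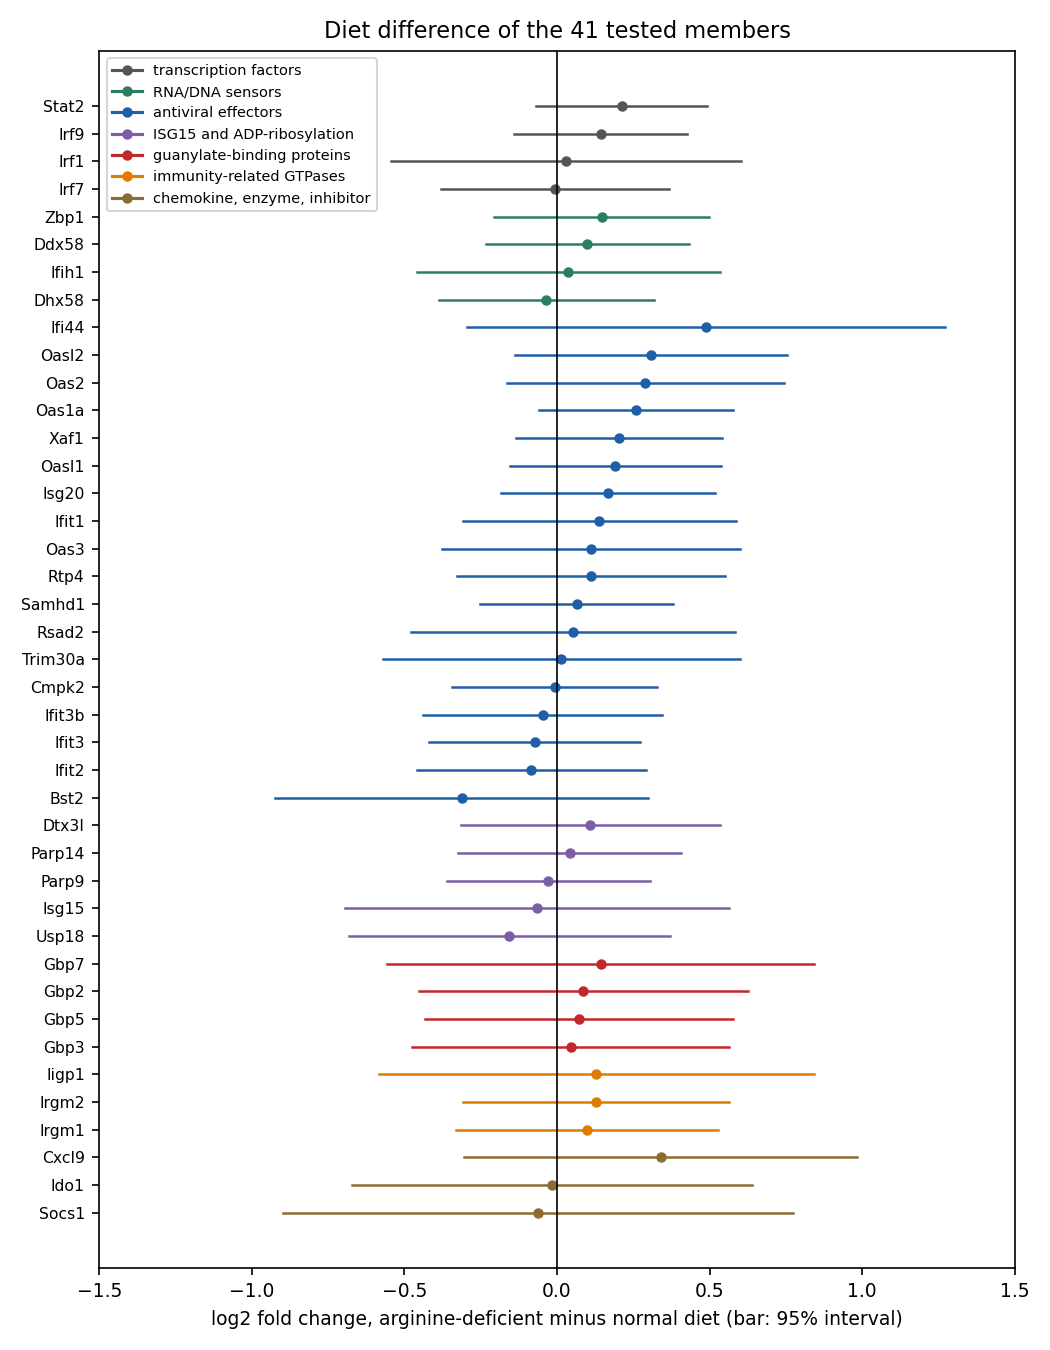
The plot of diet differences shows each tested member as a point on a log2 axis, deficient minus normal diet, with its 95% interval as a bar and colours for roles. All 41 intervals cross 0, the points run from -0.31 (Bst2) to 0.49 (Ifi44), and the 7 GTPases lie close together between 0.045 and 0.14.

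The transcription factors of the pathway had similar levels on both diets, 3 of 4 lying above 0, and the median of their log2 fold changes was 0.087. Stat2, the type I specific STAT, stood at 167, 167, 163, 134 and 163 CPM (counts scaled to library size with TMM factors) in deficient replicates 1 to 5. On the normal diet, replicates 1 to 5 stood at 148, 168, 126, 105 and 139 CPM. Deficient replicate 4 lay below the other 4 deficient libraries, and among the normal-diet libraries only replicate 2 reached those 4. The Stat2 difference was 0.21 (SE 0.13, n = 5 per diet, edgeR adjusted p = 0.870).
Irf9, the DNA-binding partner of Stat2, read 79.1, 90.2, 62.1, 63.5 and 82.2 CPM on the deficient diet and 72.4, 78.0, 66.2, 59.6 and 65.0 CPM on the normal diet, a difference of 0.14 (SE 0.13). Irf7, which amplifies type I interferon output, read 133, 154, 151, 136 and 162 CPM on the deficient diet and 176, 155, 122, 95.2 and 193 CPM on the normal diet. The Irf7 means were equal within error (147 ± 12.4 and 148 ± 39.7 CPM, SD, n = 5), with a difference of -0.0074 (SE 0.17), while the normal-diet tumours spanned both the lowest and the highest level. Irf1, the interferon-gamma induced factor, read 107, 205, 71.9, 84.2 and 114 CPM on the deficient diet and 129, 106, 97.2, 83.9 and 154 CPM on the normal diet. Deficient replicate 2 was the highest Irf1 library and deficient replicate 3 the lowest, and the mean difference was 0.029 (SE 0.26, edgeR adjusted p = 0.998).

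The sensors of viral nucleic acid did not separate the diets, 3 of 4 lying above 0. Ifih1 (MDA5), a sensor of long double-stranded RNA, read 64.8, 51.6, 104, 62.6 and 62.6 CPM on the deficient diet and 63.1, 101, 64.3, 65.6 and 42.6 CPM on the normal diet. A single library of each diet, deficient replicate 3 and normal-diet replicate 2, stood above the other 8, and the difference was 0.037 (SE 0.23). Ddx58 (RIG-I), a sensor of short RNA with triphosphate ends, read 122, 77.1, 105, 87.1 and 107 CPM against 92.4, 119, 90.1, 90.9 and 72.8 CPM, a difference of 0.10 (SE 0.15). Zbp1, a sensor of Z-form nucleic acid, read 114, 154, 132, 99.0 and 138 CPM against 125, 147, 96.7, 86.5 and 119.9 CPM, a difference of 0.15 (SE 0.16). Dhx58, the regulatory relative of both helicases, had a difference of -0.035 (SE 0.16).

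The antiviral effectors held the members with the largest differences in either direction, none of them past the test. Of 18 tested effectors, 13 lay above 0 and 5 below, with a median log2 fold change of 0.11. The oligoadenylate synthetase family, known for the messenger that switches on RNase L, was above 0 in the 5 tested genes of it among the members, from 0.11 (Oas3) over 0.19 (Oasl1), 0.26 (Oas1a) and 0.29 (Oas2) to 0.31 (Oasl2). Oas1a (chr5:120896256-120907521, minus strand) read 96.4, 81.8, 83.7, 74.1 and 111 CPM on the deficient diet and 80.4, 84.6, 63.0, 59.5 and 86.0 CPM on the normal diet. Its means were 89.3 ± 14.3 and 74.7 ± 12.5 CPM (SD, n = 5), a difference of 0.26 (SE 0.15, edgeR adjusted p = 0.843), and only deficient replicates 1 and 5 lay above all normal-diet libraries. Oasl2 (chr5:114896936-114912234, plus strand) read 285, 264, 405, 200.1 and 295 CPM on the deficient diet and 237, 335, 181, 185 and 234 CPM on the normal diet, a difference of 0.31 (SE 0.20, edgeR adjusted p = 0.903). All 5 lie on chromosome 5. Of the relatives of Oas1a outside the members, Oas1g lay at 0.22 (SE 0.21) and Oas1c at -0.48 (SE 0.27, edgeR adjusted p = 0.834).

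Ifi44, an interferon-induced protein of unsettled function, had the largest difference of the tested members. It read 84.0, 85.5, 273, 79.5 and 117 CPM on the deficient diet and 88.0, 153, 70.6, 82.7 and 61.2 CPM on the normal diet. Deficient replicate 3 alone was far above the others, and the difference was 0.49 (SE 0.36, edgeR adjusted p = 0.939), which was 0.010 without that library. Samhd1, which depletes deoxynucleotides, was the most abundant effector in CPM at 345, 421, 446, 308 and 324 CPM on the deficient diet and 354, 431, 297, 301 and 381 CPM on the normal diet, a difference of 0.064 (SE 0.15). The Ifit genes, whose proteins bind foreign RNA ends, lay on both sides of 0, with Ifit1 at 0.14 (SE 0.21), Ifit2 at -0.085 (SE 0.17), Ifit3 at -0.074 (SE 0.16) and Ifit3b at -0.048 (SE 0.18). Ifit3 and Ifit3b are close copies, as are several Oas and Gbp genes, and how reads shared by copies were counted is unknown here, so their single values are uncertain. Bst2 (tetherin), which holds budding virus at the cell surface, was the lowest member at -0.31 (SE 0.28), with 341 CPM in normal-diet replicate 5 and 109.8 to 189 CPM in the other 9 libraries. The remaining tested effectors (Rsad2, Isg20, Cmpk2, Trim30a, Xaf1 and Rtp4) lay between -0.0082 and 0.20.

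Genes of ISG15 conjugation and ADP-ribosylation were split, 2 of 5 above 0 and 3 below, with a median of -0.028. Isg15, the ubiquitin-like modifier, read 28.7, 33.5, 23.9, 31.9 and 35.2 CPM on the deficient diet and 30.5, 26.8, 24.3, 16.7 and 62.6 CPM on the normal diet. Both the lowest and the highest Isg15 library were of the normal diet, and the difference was -0.066 (SE 0.29). Usp18, which removes ISG15 and restrains the type I receptor, read 10.3, 11.1, 6.15, 14.0 and 13.0 CPM against 13.0, 13.7, 9.49, 8.53 and 16.2 CPM, a difference of -0.16 (SE 0.24), and 81.8% of its exon sequence lay within a gene on the other strand.
Dtx3l, the ubiquitin ligase that pairs with Parp9, read 72.2, 78.6, 101, 61.7 and 69.6 CPM against 64.7, 106, 66.5, 68.8 and 49.0 CPM, a difference of 0.11 (SE 0.19). Parp14, a mono-ADP-ribosyltransferase, read 118, 89.4, 129, 93.1 and 105 CPM against 94.3, 152, 91.4, 93.6 and 89.2 CPM, a difference of 0.041 (SE 0.17). Normal-diet replicate 2 was the highest library for both genes, and Parp9 itself lay at -0.028 (SE 0.15).

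The interferon-gamma induced GTPases were all slightly above 0, also with the other size factors, while 5 of 7 were with limma voom, and none of the 7 tested passed. Their diet differences ran from 0.045 to 0.14 on the log2 scale (median 0.098), while the highest library was 1.98 to 3.05 times the lowest. Gbp2 (chr3:142620602-142638008, plus strand), the most abundant of them, read 429, 858, 471, 315 and 379.7 CPM on the deficient diet and 485, 606, 378, 374 and 469 CPM on the normal diet. Deficient replicate 2 was the highest library and deficient replicate 4 the lowest, so the deficient diet spanned the whole range. The Gbp2 means were 491 ± 214 and 462 ± 94.8 CPM (SD, n = 5), a difference of 0.086 (SE 0.25, edgeR adjusted p = 0.998).
Gbp5, which promotes inflammasome assembly, read 76.9, 136, 118, 61.6 and 79.7 CPM on the deficient diet and 89.4, 133, 74.6, 79.5 and 71.9 CPM on the normal diet, a difference of 0.072 (SE 0.23). Gbp7 (chr3:142530342-142550149, plus strand) read 188, 341, 537, 223 and 208 CPM on the deficient diet and 239.7, 471, 226, 245 and 176 CPM on the normal diet, a difference of 0.14 (SE 0.32). In both genes deficient replicates 2 and 3 and normal-diet replicate 2 stood above the other 7 libraries. Gbp3, their neighbour on chromosome 3, lay at 0.045 (SE 0.24).

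The IRGs were high in the same 3 libraries. Irgm1, a regulator that guards the cell's own membranes from other IRGs, read 90.8, 158, 118, 80.8 and 103 CPM on the deficient diet and 102, 143, 91.9, 79.9 and 97.0 CPM on the normal diet, a difference of 0.10 (SE 0.20). Irgm2, of the same regulatory group, read 99.99, 139, 125, 72.5 and 98.1 CPM against 88.1, 145, 81.8, 84.4 and 89.6 CPM, a difference of 0.13 (SE 0.20). Iigp1 (Irga6), an effector that coats parasite vacuoles, read 163, 298, 453, 167 and 175 CPM against 172, 405, 178, 215 and 179 CPM, a difference of 0.13 (SE 0.33). For all 3, deficient replicates 2 and 3 and normal-diet replicate 2 were the 3 highest libraries.

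**Figure D2:**
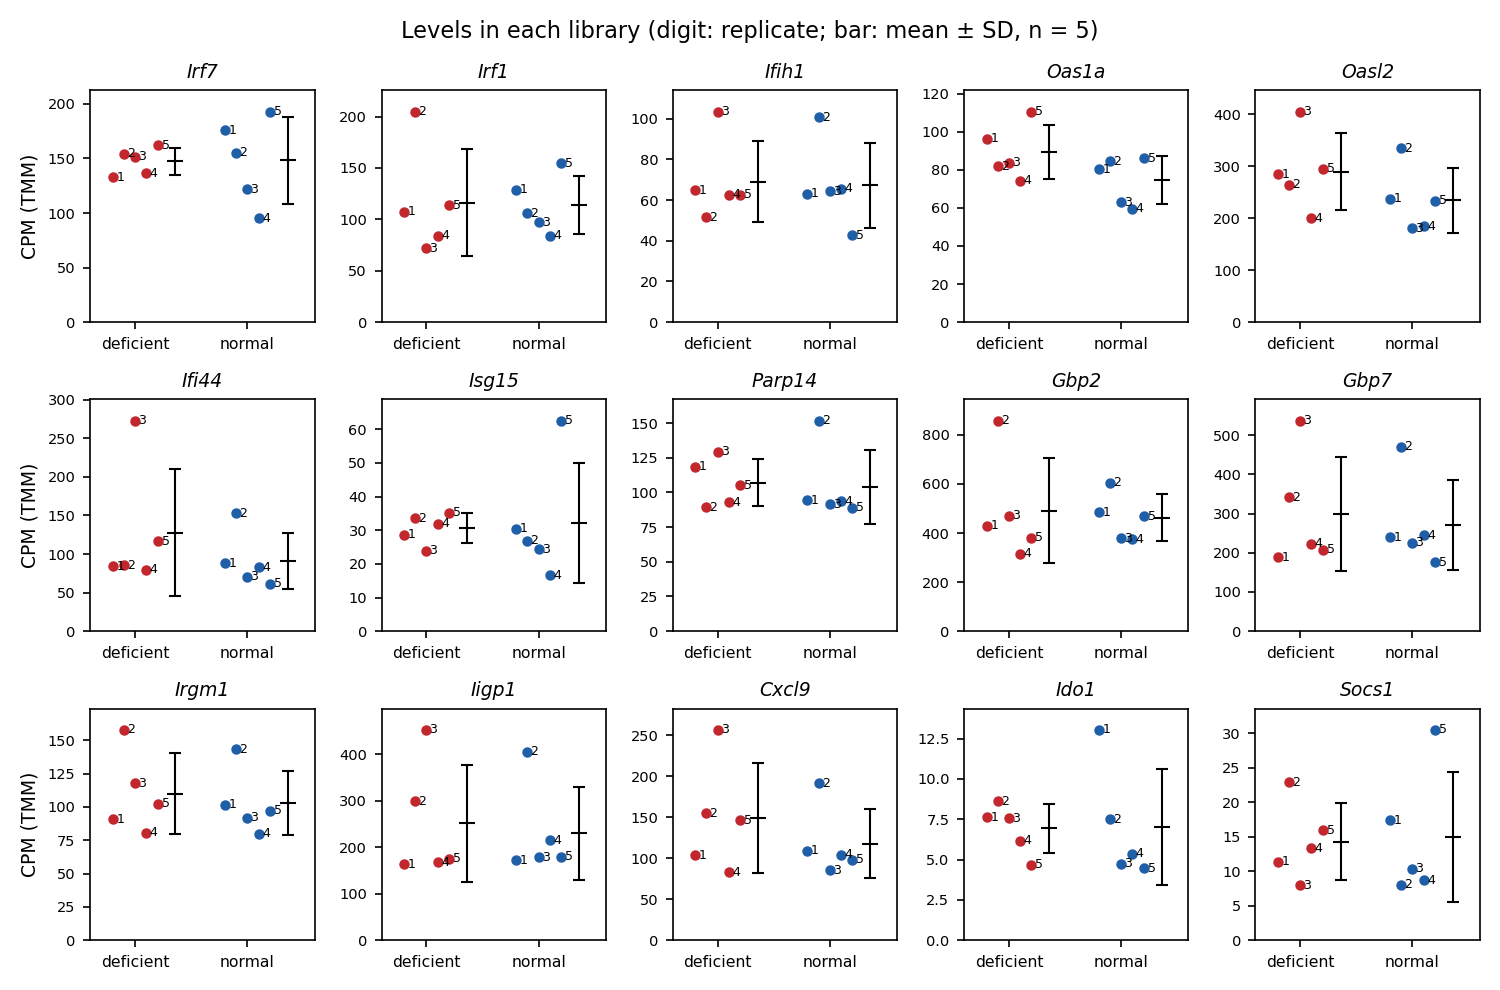
The plot of levels by library shows CPM on a linear axis from 0 for 15 members, deficient libraries in red and normal-diet libraries in blue, each point labelled with its replicate number and each diet's mean and SD as a bar. The diets overlap in every panel, and deficient replicate 2 is the highest library for Gbp2 (858 CPM), Irf1 and Irgm1, and deficient replicate 3 for Ifi44 (273 CPM), Gbp7 and Iigp1.

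The other interferon-gamma targets had few counts or a wide spread. Cxcl9, the chemokine that draws T cells through Cxcr3, read 104, 155, 257, 82.8 and 146 CPM on the deficient diet and 109, 191, 85.5, 104 and 97.9 CPM on the normal diet. Its means were 149 ± 67.3 and 118 ± 42.1 CPM (SD, n = 5), a difference of 0.34 (SE 0.30, edgeR adjusted p = 0.960). Ido1, which degrades tryptophan, was the lowest tested member per length and read 7.61, 8.63, 7.57, 6.17 and 4.69 CPM against 13.1, 7.49, 4.73, 5.36 and 4.46 CPM, a difference of -0.017 (SE 0.30).
Socs1, the feedback inhibitor of Janus kinases, read 11.4, 22.9, 7.97, 13.3 and 15.9 CPM against 17.4, 8.002, 10.3, 8.69 and 30.5 CPM. Socs1 had the largest spread of the members (a biological coefficient of variation, the fitted spread between libraries of one diet, of 42.5%) and a difference of -0.064 (SE 0.38). Its highest libraries were normal-diet replicate 5 and deficient replicate 2.

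Type I induced genes and GTPases had close medians in the diet comparison. The median log2 fold change was 0.082 over 30 type I induced genes, with 20 above 0 and 10 below, and 0.098 over 7 GTPases, and the difference of the medians was -0.016. These medians moved with single libraries. Without deficient replicate 2 the GTPase median was -0.071 and the difference of medians 0.18, and without normal-diet replicate 2 the medians were 0.20 for type I induced genes and 0.26 for GTPases. Without deficient replicate 3 the type I median was -0.0055. The GTPases had the wider spread between tumours of one diet, with a median coefficient of variation of 27.4% beside 20.8% for type I induced genes and 22.0% for all tested genes.

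Within single tumours the classes parted. Levels were expressed per gene as log2 relative to the normal-diet mean, and the median over each class was taken in each library. In deficient replicate 2 the GTPases lay at 0.64 and the type I induced genes at -0.013. All 7 GTPases and all 4 other interferon-gamma targets were above the normal-diet mean there, and 14 of 30 type I induced genes were. Deficient replicate 5 had the opposite order, with type I induced genes at 0.24 (24 of 30 above the normal-diet mean) and GTPases at -0.26 (2 of 7 above it). The GTPase families differed in that library, with a median of -0.27 for the 4 tested GBPs and 0.025 for the 3 tested IRGs. In deficient replicate 3 and normal-diet replicate 2 both classes were high, at 0.31 and 0.39 in the former and at 0.36 and 0.60 in the latter for type I induced genes and GTPases.
Type I minus GTPase level was 0.16, -0.65, -0.082, 0.27 and 0.50 in the deficient libraries and 0.013, -0.24, 0.037, -0.026 and 0.13 in the normal-diet libraries. The deficient tumours spanned the wider range and enclosed all normal-diet values. The parting in deficient replicates 2 and 5 remained after each library's trend with GC content and gene length was removed, a correction chosen after the data were seen, with values of -0.73 and 0.46. Whether deficient tumours vary more in this measure than normal-diet tumours was not tested.

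**Figure D3:**
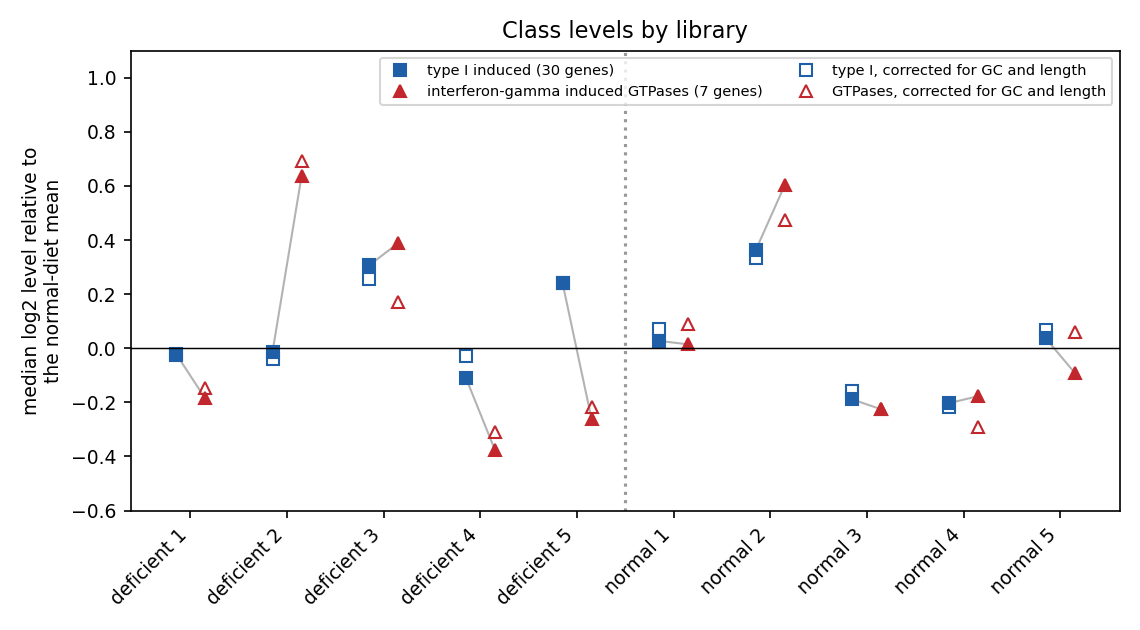
The plot of class levels shows, for each library, the median log2 level of the 30 type I induced genes (squares) and the 7 GTPases (triangles) relative to the normal-diet mean, joined by a grey line, with open symbols after correction for GC content and length. The GTPases stand above the type I induced genes in deficient replicate 2 (0.64 against -0.013) and below them in deficient replicate 5 (-0.26 against 0.24), and both are raised in deficient replicate 3 and normal-diet replicate 2.

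Base composition moved with the members' levels in some libraries. Over 41 members, the highest library was deficient replicate 3 for 13, normal-diet replicate 2 for 8, deficient replicate 2 for 7 and normal-diet replicate 5 for 6, and the lowest was normal-diet replicate 4 for 12 and normal-diet replicate 5 for 9. Among the 11 members with the lowest transcript GC content (39.4% to 45.9%, Iigp1, Trim30a, Ifit1, Ifi44, Gbp7, Ifih1, Ddx58, Rsad2, Ifit3b, Irgm1 and Cxcl9), deficient replicate 3 and normal-diet replicate 2 were the top libraries together for 8. The median level of these 11 was 0.83 and 0.64 in these libraries, and 0.41 and 0.37 after the correction. Among the 11 with the highest GC content (52.0% to 58.6%), such as Isg15, Bst2 and Socs1, the median was 0.43 in normal-diet replicate 5 and 0.12 after the correction.
Over all tested genes, each gene's log2 deviation from its mean over the 10 libraries was fitted on GC content and gene length together. The slope on GC content per 10 percentage points was -0.53 for deficient replicate 3. It was -0.35, -0.25 and 0.38 for the normal-diet replicates 2, 4 and 5, and between 0.025 and 0.18 in the other 6. Deficient replicate 2, the library with the high GTPases, had a slope of 0.17. With GC and length offsets in the fit, 0 members passed the test, and the medians were 0.083 for type I induced genes and 0.10 for GTPases.

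**Figure D4:**
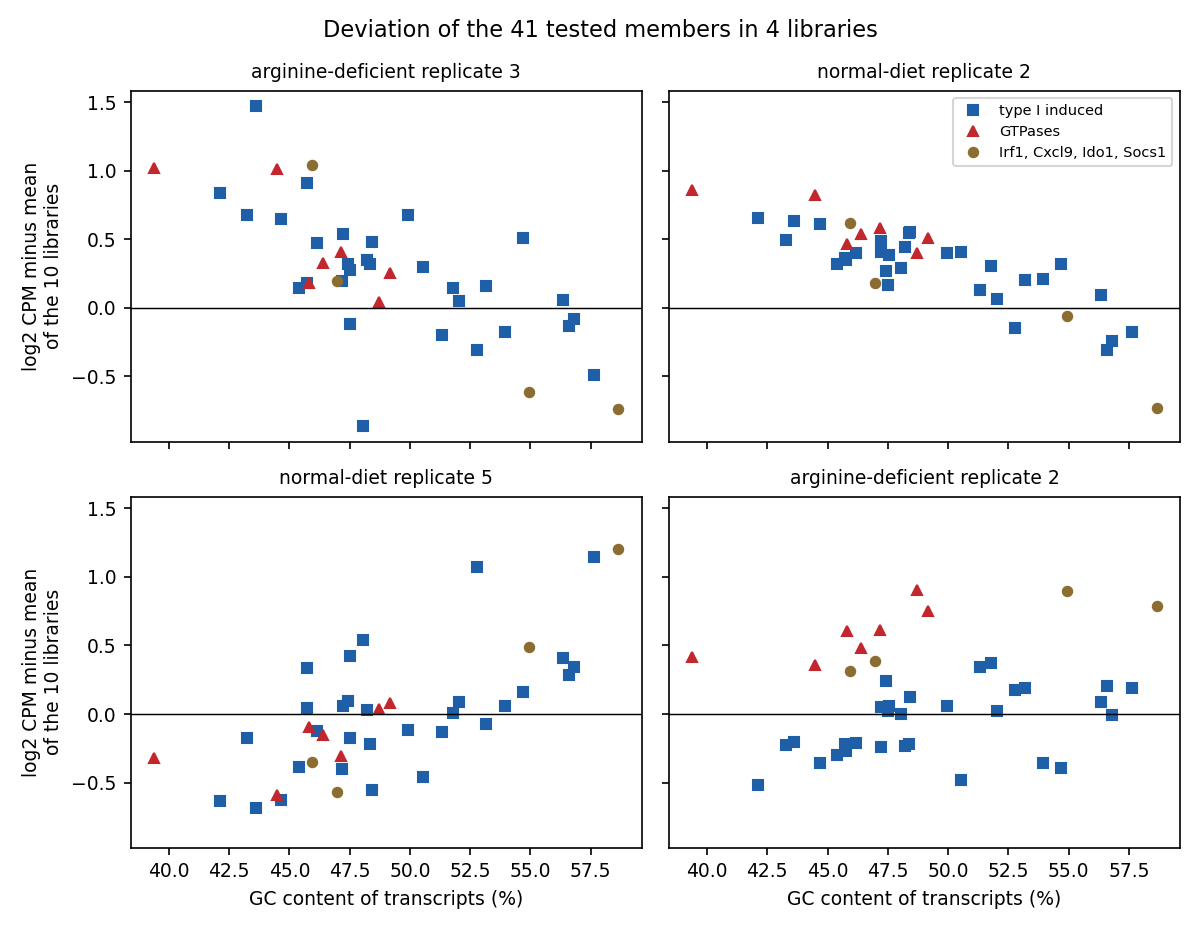
The plot of deviation against base composition shows, for 4 libraries, each tested member's log2 CPM minus its mean over the 10 libraries against the GC content of its transcripts. Points fall from left to right in deficient replicate 3 and normal-diet replicate 2, rise in normal-diet replicate 5, and in deficient replicate 2 the GTPases (triangles) lie above most type I induced genes (squares).

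Markers of other cells were measured beside these patterns. Of 14 T cell markers, 11 were tested and Trac, Trbc1 and Trbc2 had no row in the table analysed. The summed level of the 11 was 99.4 CPM in deficient replicate 2, within the 73.8 to 116 CPM of the other libraries. Thy1 alone gave 48.5 CPM of that sum. Ifng, the gene of interferon-gamma, had 2 to 24 counts per library and 0.300 CPM in deficient replicate 2, within the 0.144 to 0.873 CPM of the other libraries. The same library had an NK cell marker sum of 29.3 CPM, the third highest of the 10. It was the highest library for Eomes (6.23 CPM), Klrb1c (1.74 CPM) and the T cell marker Cd2 (4.61 CPM). For the T cell markers Cd3g (5.45 CPM) and Cd8b1 (2.40 CPM), only normal-diet replicate 5 was lower. The part of T cells and NK cells in the GTPase levels of deficient replicate 2 was not tested. Deficient replicate 3 and normal-diet replicate 2, where both classes were high, had NK cell marker sums of 38.5 and 36.4 CPM, beside 14.2 to 29.3 CPM in the others. Their monocyte marker sums were 239 and 194 CPM, beside 129 to 164 CPM. Their T cell marker sums were 115.9 and 115.8 CPM, beside 73.8 to 111 CPM. They were the highest libraries for Cd3e, Cd3g, Cd8a (21.9 and 28.0 CPM) and Cd8b1, and not together for any other tested T cell marker. In these 2 libraries the NK cell marker Klrk1 (GC content 39.5%) gave 21.8 and 20.7 CPM, and Klre1 (40.2%) gave 8.005 and 6.79 CPM. Eomes (56.7%) stood at 2.66 and 2.43 CPM and Ncr1 (44.3%) at 4.98 and 4.82 CPM, within the range of the other libraries. The monocyte marker Ccr2 (39.4%) gave 97.1 and 71.8 CPM, and Plac8 (46.5%) gave 122 and 113 CPM. Ly6c2 (49.9%), also a monocyte marker, gave 19.7 and 8.70 CPM, the latter within the range of the other libraries. The marker sums were not corrected for GC content. The part of T cells, NK cells and monocytes in the high levels was not tested. Skeletal muscle markers summed to 6663 and 1700 CPM for deficient replicates 3 and 4, to 603 CPM for normal-diet replicate 4, and to 5.27 to 76.9 CPM in the others, and mitochondrial transcripts took 9.97% of counts in deficient replicate 3 and 1.67% to 4.44% elsewhere. Without these 3 muscle-rich libraries 0 members passed, and the medians were -0.022 for type I induced genes and 0.085 for GTPases. Erythroid markers summed to 56.2 to 106 CPM on the deficient diet and 101 to 602 CPM on the normal diet, highest in normal-diet replicates 1 and 5, and their part in the members' levels was not tested. Of the epithelial markers chosen for the implanted carcinoma, Krt20 ranged from 87.4 to 267 CPM, while Epcam and Cldn4 had 0 to 9 counts per library. Krt18 ranged from 4.15 to 20.4 CPM, Cdh1 from 1.12 to 4.49 CPM and Krt8 from 0.479 to 2.27 CPM. Diet differences were -0.42 for Krt20, -0.47 for Krt18, -0.36 for Krt8 and 0.74 for Cdh1, and none passed the adjusted threshold.

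Correlations across the 10 tumours were computed for 6 pairs, with permutation p-values adjusted over the 6. Ifit3 and Isg15, both type I induced, were correlated by Pearson's r (0.82, permutation p = 0.00186, adjusted p = 0.0112). Spearman's rho (0.77) did not pass after adjustment (permutation adjusted p = 0.0717). Without the pair of libraries with the most extreme Ifit3, r was 0.62, and within the diets it was 0.66 (deficient) and 0.93 (normal), while r on values corrected for GC content and length was 0.89. Ifit3 and the GTPase Irgm1 gave r = 0.36 and rho = 0.55. Ifng gave r = 0.27 with Cxcl9, 0.010 with Irgm1 and -0.52 with Ifit3, and Cd8a gave 0.43 with Cxcl9. Within the deficient and normal diets, r for Ifng was 0.49 and 0.34 with Cxcl9, 0.090 and 0.034 with Irgm1, and -0.70 and -0.81 with Ifit3. It was 0.51 and 0.52 for Cd8a with Cxcl9, and 0.24 and 0.53 for Ifit3 with Irgm1. After correction for GC content and length, r was 0.13, -0.29, -0.69, 0.31 and 0.53 in the same order. Values within diets and after correction were not tested. None of these 5 pairs passed over the 10 tumours. Their smallest permutation p adjusted was 0.359 for r and 0.209 for rho, and Ifng rests on at most 24 counts per library.

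Per kilobase of exon, the members covered a wide range of levels, with class members interleaved. Gbp2 was highest at 189 ± 62.2 RPKM (CPM per kilobase of exon, SD over 10 libraries), followed by Bst2 at 181 ± 75.8, Gbp3 at 74.8 ± 22.7, Gbp7 at 50.9 ± 22.2, Cxcl9 at 44.2 ± 18.4, Oas1a at 43.5 ± 7.86, Isg15 at 41.5 ± 16.2 and Iigp1 at 41.3 ± 18.5 RPKM. Gbp2 and Bst2 did not differ beyond their spread, nor did the 5 genes from Gbp7 to Iigp1 with each neighbour, while the highest Gbp3 library (121 RPKM) lay just under the lowest of Bst2 (122 RPKM). The lowest were Dhx58 at 5.30 ± 0.847, Socs1 at 5.04 ± 2.52, Usp18 at 4.14 ± 1.07 and Ido1 at 3.82 ± 1.42 RPKM.

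Other genes of the interferon pathways did not pass the test either. Of 124 listed genes, 83 were tested, 45 above 0 and 38 below, and 0 passed the adjusted threshold. None of the 21 listed interferon ligands was tested, 14 being listed at 0. Of these, Ifnk, Ifnl2 and Ifnl3 have 100% of their exonic bases inside other genes. Ifnb1 had 0 to 4 counts per library on the deficient diet and 0 in every normal-diet library, too few to test. The receptor chains lay at 0.10 (Ifnar1, SE 0.099), 0.077 (Ifnar2, SE 0.13), -0.037 (Ifngr1, SE 0.13) and 0.067 (Ifngr2, SE 0.12). Genes with the smallest p in the other lists also missed the threshold, with log2 fold changes of 0.15 for the receptor chain Il10rb, -0.11 and -0.077 for the factors Irf3 and Irf5, 0.096 for Tmem173 (STING) and 0.17 for Traf6. The phosphatases Ptpn2 and Ptpn6 lay at 0.081 and -0.10, and the GTPases Gbp8 and Irgq at 0.21 and 0.11. At an unadjusted p of 0.05 in edgeR, 2 of the 83 passed, both lower on the deficient diet, beside 6.74% of all tested genes (3.19% lower). Ifi27l2a, a small interferon-induced mitochondrial protein, was 49.1 ± 6.22 CPM against 74.9 ± 30.04 CPM (SD, n = 5), a difference of -0.61 (SE 0.23, edgeR adjusted p = 0.629). Ifitm1, which blocks virus entry, was 27.8 ± 2.05 CPM against 38.6 ± 12.8 CPM, a difference of -0.47 (SE 0.20, edgeR adjusted p = 0.688). Both were highest in normal-diet replicate 5. With GC and length offsets the differences were -0.48 (SE 0.17, edgeR adjusted p = 0.297) and -0.43 (SE 0.17, edgeR adjusted p = 0.335).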

How the data were processed

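Illumina libraries of total RNA from 10 mouse tumours were sequenced, per the labels' protocols. The authors deposited raw counts per gene. Per the submitters' processing notes, FastQC, STAR and featureCounts were used with mm10, and the sources used here do not give versions or strand settings. Totals ran from 12013178 to 31530123 counts per library. Symbols, positions and GC content came from GENCODE M21 on the same build. edgeR 4.0.16 (R 4.3.3) was run on all 10 libraries with TMM factors, filterByExpr defaults and diet as the only term, on 12929 genes holding 99.9% of counts, with Benjamini-Hochberg adjustment over all of them at 0.05. SE is the absolute log2 fold change divided by the root of F. The labels describe separate mice per diet but tie no library to an animal, so p-values measure the spread between these samples.

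Members and lists were chosen with earlier results of these data known. Per-library values are given for the transcription factors, for Cxcl9, Ido1 and Socs1, and in each other role for the 2 members with the smallest p, the most abundant and the one with the largest difference; other genes were named after their values were seen. Pathway genes named include those with the smallest p in each list. Of the pathway genes to be named, 1 is not reported here. Alternatives were other size factors, filters, DESeq2 1.42.0, limma voom 3.58.1 with sample weights, a block on replicate number, leaving out each library, the muscle-rich libraries or genes inside other genes, and, added after the data were seen, spline offsets for GC content and length; 2 pairs with Irgm1 were also added, since Igtp had too few counts. Tested on simulated data of the diet comparison over 12929 genes, the fit recovered 13.9% of 1.5-fold changes, 61.7% of 2-fold changes and 98.5% of 4-fold changes. Correlations used 100000 permutations of log2 CPM (prior count 2).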

Additional observations from a re-analysis of the deposited data

Results flagged for a closer look

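In 48 groups of 5 libraries (24 named members on each diet), 10 had a highest or lowest library whose gap to its nearest neighbour took more than 0.71 of the group's range, the 95% critical value of Dixon's test for 5 samples; chance alone gives about 1 in 20. Normal-diet replicate 2 was the high library in 6 of them, with ratios of 0.918 for Parp14, 0.877 for Irgm2, 0.817 for Iigp1, 0.776 for Cxcl9, 0.767 for Gbp7 and 0.714 for Gbp5. Deficient replicate 3 was the high library for Ifi44 (0.808) and Ifih1 (0.746), deficient replicate 2 for Gbp2 (0.712), and deficient replicate 4 was the low library for Stat2 (0.878). These groups share libraries, so the 10 are not independent.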

How the results depend on the processing

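Under each of the 20 alternatives 0 members passed the adjusted threshold, the smallest adjusted p among them running from 0.0913 (limma voom with sample weights) to 0.9995 (replicate block). Unadjusted, 6 members passed 0.05 with limma voom (Oas1a, Isg20, Stat2, Oasl2, Oasl1 and Isg15, all higher on the deficient diet), 4 without normal-diet replicate 2 (Xaf1, Oasl2, Stat2 and Oas2, all higher) and 1 without deficient replicate 2. The shares of all tested genes passing 0.05 unadjusted under these alternatives are not given here. These counts are therefore not read as a result about the members.

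Over all genes, 7 were called, 129 with DESeq2 (68 higher, 61 lower), 373 with limma voom (205 higher, 168 lower), 41 with GC and length offsets, 18 without the 3 muscle-rich libraries, 1 with the replicate block and 0 to 16 with 1 library left out. Same-numbered libraries had correlations of their deviations of 0.13, -0.35, -0.0061, 0.13 and 0.18, and 1 of 10 libraries was closest to its own number. No pairing by number is stated, and the main fit did not use the numbers as pairs.

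Of 479 values of the 24 named members under the alternatives, 53 changed sign and 0 changed a call, and 9 members kept their sign throughout. With limma voom the log2 fold change was 0.21 for Irf7, -0.10 for Ifih1, 0.39 for Isg15, 0.22 for Usp18, -0.041 for Gbp7, -0.0092 for Iigp1, 0.16 for Ido1 and 0.46 for Socs1. With the replicate block it was 0.033 for Irf7, -0.042 for Irf1, 0.063 for Isg15, 0.074 for Ido1 and 0.023 for Socs1. Without the muscle-rich libraries it was -0.18 for Ifih1, -0.0042 for Samhd1, -0.025 for Parp14, -0.17 for Gbp7, -0.13 for Iigp1 and 0.026 for Socs1, and with the offsets 0.013 for Irf7 and 0.064 for Isg15. The cause of these changes was not tested.

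With 1 library left out, members that changed sign ran from -0.0046 to 0.30 (Dtx3l), -0.22 to 0.21 (Gbp2), -0.10 to 0.26 (Gbp5), -0.17 to 0.44 (Gbp7), -0.14 to 0.33 (Ido1), -0.15 to 0.23 (Ifih1), -0.19 to 0.43 (Iigp1), -0.28 to 0.17 (Irf1), -0.13 to 0.11 (Irf7), -0.071 to 0.25 (Irgm1), -0.23 to 0.32 (Isg15), -0.030 to 0.22 (Parp14), -0.0088 to 0.15 (Samhd1), -0.30 to 0.36 (Socs1) and -0.26 to 0.00015 (Usp18).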
